A study of Mus musculus with 47 samples.

Results

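The classical major histocompatibility complex (MHC) class II molecules are membrane proteins that carry peptides from engulfed material to the cell surface, where CD4+ T cells read them. Expression in PFC was examined for 5 genes of this system: H2-Ab1 and H2-Aa, which encode the beta and alpha chains of the A molecule; H2-Eb1, which encodes the beta chain of the E molecule; Cd74, the invariant chain that blocks the peptide groove until the molecule reaches the endosome; and Ciita, the transactivator that switches class II transcription on. Members were all probesets whose array annotation gave one of these symbols alone, which yielded 12 of the 45037 probesets on the array and 5 of the 18193 genes named by it. H2-Ab1 had 3 probesets, H2-Aa 4, H2-Eb1 and Cd74 1 each and Ciita 3.

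In healthy brain tissue class II is scarce. Microglia and the macrophages and dendritic cells of the brain borders can display it, and interferon-gamma is the classic inducer, acting on Ciita. Class II promoters share a compact module, in which an X box, bound by the RFX complex and CREB, lies upstream of a Y box, bound by NF-Y, and Ciita docks on the assembled factors without touching DNA itself. C57BL/6 mice carry an MHC haplotype that does not express the E alpha chain, so H2-Eb1 RNA can be present where no E molecule reaches the surface.

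RNA from the medial PFC of adult male mice (strain C57BL/6 in the sample labels) was read on Affymetrix whole-genome mouse arrays. Mice with chronic intermittent ethanol (CIE) inhaled ethanol vapor at 10 to 13 mg/l for 16 hours a day over 4 days, were then left abstinent for 7 days, and passed through 4 of these cycles, each started with an ethanol injection of 1.6 g/kg. Control (Ctrl) mice received saline in its place and breathed air. Mice of both treatments were given pyrazole (1 mmol/kg, i.p.), which blocks alcohol dehydrogenase, so the comparison is of ethanol on top of pyrazole. Tissue was collected at 0h, 8h, 72h and 7d after the final chamber session, with 1 mouse per array, 5 mice in the CIE 8h group and 6 in each of the other 7 groups (CIE 0h, 72h and 7d and Ctrl 0h, 8h, 72h and 7d).

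Values are log2 RMA intensities, effects are CIE minus Ctrl on that scale, and a probeset was called at FDR ≤ 0.01 in a limma model over all 47 arrays. The number of arrays limits the precision. Array medians lay between 6.39 and 6.42, and the 10 markers of cortical excitatory neurons that were measured all lay above the median of probeset means (6.41). The array of CIE 8h mouse 15 stood apart, with a mean correlation of 0.967 with the other arrays, against a median of 0.992 over all arrays. The labels divide the arrays into 2 repeat groups, and repeat group 2 held 2 CIE and 3 Ctrl mice, all at 8h. Results at 8h are therefore also given without mouse 15 and within each repeat group.

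Upstream sequences are shown because the X and Y box module is what class II genes are known to have in common. The RefSeq promoter table (GRCm38.p6) held H2-Aa and H2-Eb1 among the members, and the related chains H2-Eb2 (a second E beta chain) and H2-DMb1 (a chain of the DM molecule, which swaps the invariant chain peptide for antigen) are printed for comparison. Each line gives the 150 bases before the annotated start, 5′ to 3′ on the strand of the gene. Capitals mark the Y box core GATTGG (or its reverse complement CCAATC), the X box core ACNGATG and the core TGACG of a cAMP response element, all searched on both strands.
H2-Aa, chr17:34287824-34287973, minus strand: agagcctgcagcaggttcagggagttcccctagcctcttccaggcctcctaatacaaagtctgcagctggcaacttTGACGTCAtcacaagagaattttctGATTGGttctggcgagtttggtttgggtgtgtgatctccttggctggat
H2-Eb1, chr17:34305717-34305866, plus strand: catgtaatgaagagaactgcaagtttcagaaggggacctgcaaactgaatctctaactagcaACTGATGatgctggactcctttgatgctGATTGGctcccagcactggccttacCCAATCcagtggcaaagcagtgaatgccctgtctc
H2-Eb2, chr17:34325525-34325674, plus strand: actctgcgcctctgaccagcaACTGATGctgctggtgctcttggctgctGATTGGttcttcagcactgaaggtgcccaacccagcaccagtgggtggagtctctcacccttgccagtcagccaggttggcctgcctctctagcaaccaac
H2-DMb1, chr17:34153041-34153190, plus strand: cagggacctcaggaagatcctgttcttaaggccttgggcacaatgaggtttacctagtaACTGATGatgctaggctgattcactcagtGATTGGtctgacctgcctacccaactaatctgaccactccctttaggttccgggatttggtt

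In H2-Eb1 the X box core began 88 bases before the start and the Y box core 60 bases before it, so that the motifs began 28 bases apart. H2-Eb2 had the same distance of 28 bases, at 129 and 101 bases, while H2-DMb1, at 91 and 62 bases, and H2-DMb2, at 120 and 91 bases, had one of 29 bases. In H2-Oa the cores lay 93 bases apart, at 137 and 44 bases. H2-Aa held the Y box core at 49 bases and, 25 bases further upstream, a TGACG site at 74 bases that overlapped its own reverse complement, forming a palindrome, and a reverse X box core at 232 bases, outside the printed window. Over 250 bases before the start, a Y box core was present in 14.6% of all 32851 promoters of the table and the X box core in 8.31%, TGACG in 17.8%, and a Y box core with either of the others in 3.97%. Of 13 class II genes looked up, 8 were in the table with 9 promoters, of which 8 held a Y box core and 6 held it together with an X box core or TGACG. The interferon-gamma activated site TTCNNNGAA, found in 7.02% of all promoters, occurred in 1 of the 9, that of H2-DMb2. These matches describe the letters in the window and not binding.

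**Figure D1:**
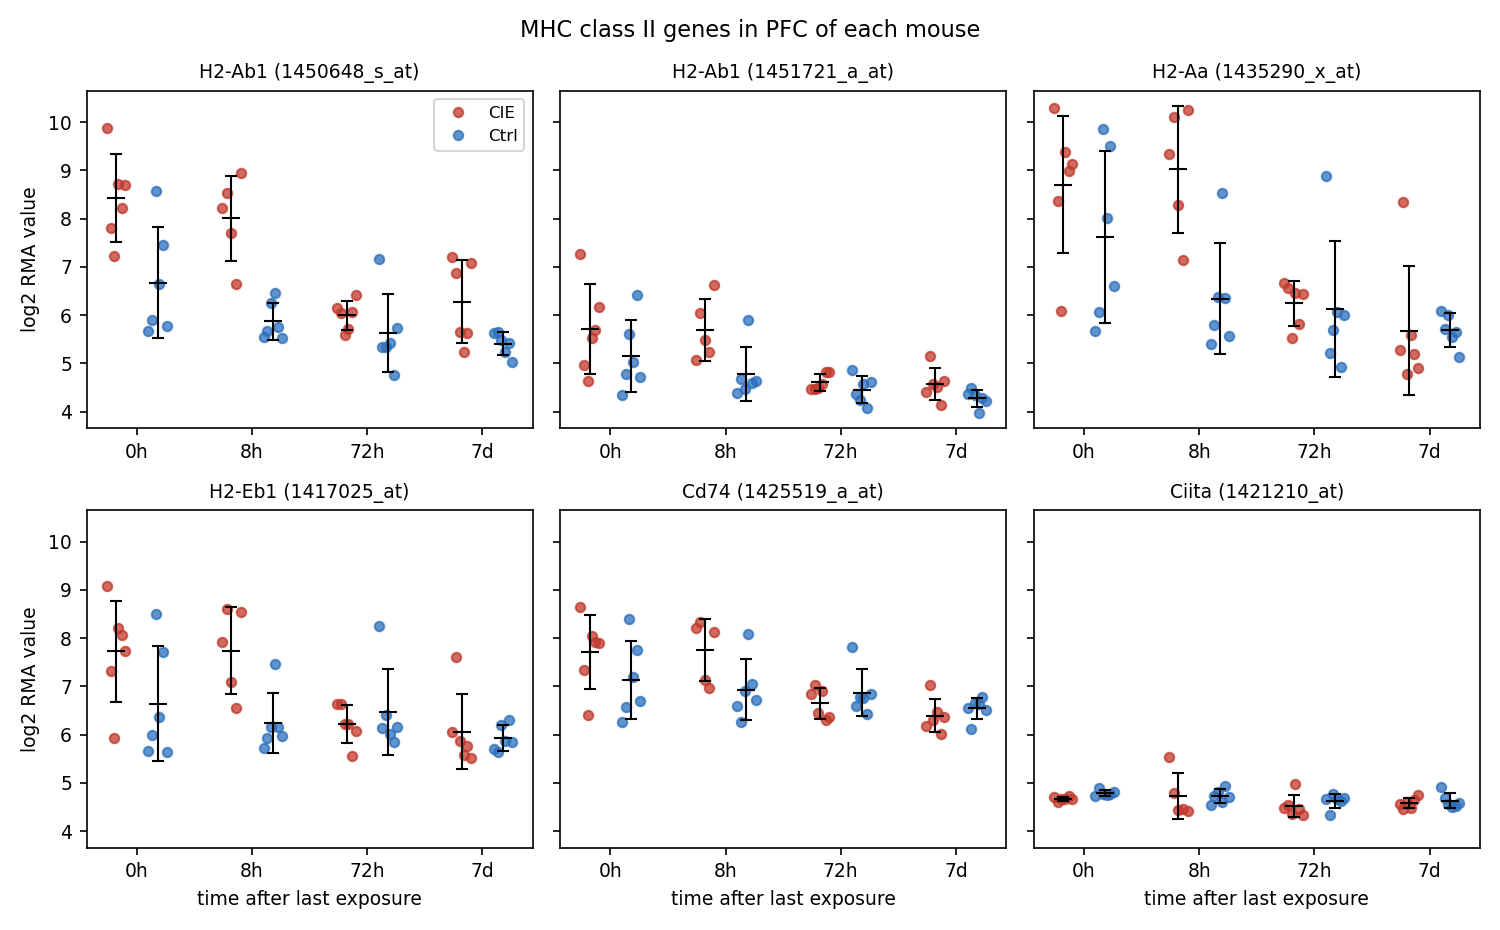
Log2 RMA value of 6 class II probesets (panels) for every mouse at 0h, 8h, 72h and 7d, with CIE (red) left of Ctrl (blue) and bars for the mean ± SD. The H2-Ab1 probeset 1450648_s_at separated CIE from Ctrl mice at 8h, whereas single Ctrl mice reached the CIE range for H2-Aa, H2-Eb1 and Cd74, and Ciita averaged 4.66 with CIE 8h mouse 15 (5.53) as its highest value.

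At the end of exposure (0h) H2-Ab1 rose with CIE on 1 of its 3 probesets, and the other A and E chain probesets were higher on average in CIE mice without passing the threshold. The probeset 1450648_s_at of H2-Ab1 had a lowest value of 7.22, a median of 8.45 and a highest value of 9.87 in the 6 CIE mice, against 5.67, 6.27 and 8.57 in the 6 Ctrl mice. All 6 CIE mice lay above the Ctrl mean, and Ctrl mice 20 (8.57) and 56 (7.45) reached into the CIE range. The effect was 1.75 ± 0.42 (SE), a 3.36-fold difference (limma adjusted p = 0.0034), and ranked 4 among all 45037 probesets, counted from the highest. In a two-sided exact permutation test over the mice of that time its p was 0.0238. The call was lost when CIE mouse 11 or any one of Ctrl mice 2, 12 and 78 was left out (adjusted p between 0.0111 and 0.0155), and when the 0h arrays were fitted alone (adjusted p = 0.0420).

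The other H2-Ab1 probesets read lower and moved less. The probeset 1451721_a_at, by which the gene was read under the naming rule, ranged over 4.63 to 7.26 in CIE mice (median 5.61) and over 4.35 to 6.41 in Ctrl mice (median 4.91), an effect of 0.55 ± 0.30 (limma adjusted p = 0.224). The probeset 1425477_x_at, whose suffix marks possible cross-hybridization, differed by 0.36 ± 0.25 (limma adjusted p = 0.347). The 3 probesets thus gave effects between 0.36 and 1.75 for the same gene, and 1 of 3 passed.

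For H2-Aa, the partner chain, the probeset 1435290_x_at ranged over 6.09 to 10.3 in CIE mice (median 9.06) and over 5.66 to 9.85 in Ctrl mice (median 7.31) at 0h. The groups overlapped over almost their whole range, with CIE mouse 43 (6.09) near the bottom and Ctrl mice 20 (9.85) and 56 (9.50) near the top. The effect was 1.09 ± 0.69 (limma adjusted p = 0.307). The probeset 1452431_s_at of the same gene ranged over 5.85 to 8.16 in CIE mice and over 4.87 to 6.89 in Ctrl mice and differed by 1.22 ± 0.34, just short of the threshold (limma adjusted p = 0.0112), and 1438858_x_at differed by 0.60 ± 0.41. The dim probeset 1443783_x_at, whose mean of 3.61 stood at the 0.713 percentile of all probesets, differed by 0.02.

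H2-Eb1 ranged over 5.93 to 9.08 in CIE mice (median 7.91) and over 5.63 to 8.50 in Ctrl mice (median 6.18) at 0h, with an effect of 1.08 ± 0.45 (limma adjusted p = 0.0982). Cd74 ranged over 6.41 to 8.65 in CIE mice (median 7.91) and over 6.25 to 8.39 in Ctrl mice (median 6.94), with an effect of 0.57 ± 0.31 (limma adjusted p = 0.227). For both genes 5 of 6 CIE mice lay above the Ctrl mean, CIE mouse 43 being the exception, and Ctrl mice 20 and 56 lay inside the CIE range. In whole tissue, a larger number of class II cells and more class II RNA in each cell cannot be told apart.

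Ciita, the transactivator, gave weak signals, with probeset means of 4.66, 4.21 and 3.99, at the 25.0, 13.6 and 7.78 percentiles of all probesets. At 0h its probesets gave effects of -0.11 ± 0.11 (1421210_at, limma adjusted p = 0.560), 0.28 ± 0.09 (1421211_a_at, adjusted p = 0.0240) and 0.11 ± 0.07 (1447075_at, adjusted p = 0.345). The brightest of them ranged over 4.61 to 4.73 in CIE mice and over 4.72 to 4.89 in Ctrl mice, nearly separate but only 0.11 apart, and its exact permutation p over those mice was 0.00433. Its 3 probesets differed in sign, and none passed in the limma model.

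In all, 1 of 12 member probesets was called at 0h, where 7.28% of all probesets were called (3.69% as higher). Of the 12, 11 were higher in CIE, 4 had an unadjusted p ≤ 0.05 (28.6% of all probesets did), and their median effect was 0.56, against a median near 0 over all probesets (-5.98e-05). The groups did not overlap for 0 of the 12, where 7.01% of all probesets did not overlap.

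At 8h, in early withdrawal, the A chain genes rose on 3 probesets, all others of H2-Ab1, H2-Aa, H2-Eb1 and Cd74 were higher on average in CIE mice, and Ciita showed no common direction. All 3, among them the one called at 0h, carried the suffix _s_at or _x_at, and their possible cross-hybridization could not be checked. No member probeset without these suffixes passed at 0h or 8h. The probeset 1450648_s_at of H2-Ab1 had values of 6.65, 7.70, 8.21, 8.52 and 8.94 in CIE mice 51, 40, 15, 23 and 69, against a lowest value of 5.52, a median of 5.71 and a highest of 6.46 in the 6 Ctrl mice. The groups did not overlap, and CIE mouse 51 came closest to the Ctrl mice. The effect was 2.14 ± 0.44, a 4.41-fold difference (limma adjusted p = 0.00188; exact permutation p = 0.00216, two-sided), and held without mouse 15 (2.09, adjusted p = 0.00730). Within repeat group 1 (3 CIE and 3 Ctrl mice) it was 1.85 and within repeat group 2 (2 and 3) it was 2.55, with no overlap in either. So few mice often do not overlap. Within repeat group 2 most member probesets did not, among them Ciita 1447075_at with CIE the lower. The share of all probesets without overlap inside a repeat group was not computed, so no result is read from these separations. Fitted on the repeat group 1 arrays alone the effect on 1450648_s_at had an adjusted p of 0.0593, and on the 8h arrays alone one of 0.0195.

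The probeset 1438858_x_at of H2-Aa had values of 6.60, 7.00, 8.71, 8.76 and 9.10 in CIE mice 51, 40, 23, 69 and 15, against 5.62 at the lowest, a median of 6.05 and 7.20 at the highest in Ctrl mice. Ctrl mouse 66, at 7.20, lay above the lower 2 CIE mice. The effect was 1.88 ± 0.43, a 3.68-fold difference (limma adjusted p = 0.00422). The call was lost without any one of CIE mice 15, 23 and 69 or Ctrl mice 75 and 79 (adjusted p between 0.0112 and 0.0253), and the effect was 1.18 within repeat group 1 and 2.88 within repeat group 2.

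The probeset 1435290_x_at of H2-Aa had the highest effect of any probeset on the array at 8h and was not called. Its values were 7.13, 8.27, 9.33, 10.1 and 10.2 in CIE mice 51, 40, 15, 23 and 69, against 5.40 at the lowest, a median of 6.07 and 8.53 at the highest in Ctrl mice. Ctrl mouse 66 (8.53) lay above CIE mice 51 and 40. The effect was 2.68 ± 0.72 with a 95% interval of 1.23 to 4.14 (limma adjusted p = 0.0137); it passed when Ctrl mouse 66 was left out (3.12, adjusted p = 0.00802) or CIE mouse 51 (3.16, adjusted p = 0.00511), and had an adjusted p of 0.0378 without CIE mouse 15. The residual SD of this probeset, 1.24, stood at the 99.97 percentile of all probesets, whose median was 0.166.

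The dim probeset 1443783_x_at of H2-Aa was called at 8h with a small effect of 0.45 ± 0.09 (limma adjusted p = 0.00198). Its values were 3.66, 3.81, 3.93, 4.08 and 4.19 in CIE mice 51, 69, 40, 15 and 23, against 3.41 to 3.58 in Ctrl mice, with no overlap. All lay near the lower limit of the array. Without mouse 15 the adjusted p was 0.0102 and without mouse 23 it was 0.0109. The remaining H2-Aa probeset, 1452431_s_at, differed by 1.15 ± 0.36 (adjusted p = 0.0315).

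H2-Eb1 had values of 6.56, 7.09, 7.91, 8.54 and 8.60 in CIE mice 51, 40, 15, 69 and 23 at 8h, against 5.73 at the lowest, a median of 6.07 and 7.46 at the highest in Ctrl mice. Cd74 had values of 6.96, 7.13, 8.12, 8.20 and 8.33 in CIE mice 51, 40, 69, 15 and 23, against 6.27, 6.81 and 8.09. In both genes Ctrl mouse 66 was the highest control and lay above CIE mice 51 and 40. The effects were 1.50 ± 0.47 for H2-Eb1 (limma adjusted p = 0.0338) and 0.82 ± 0.33 for Cd74 (adjusted p = 0.0926). Within repeat group 1 they were 0.86 and 0.12, and within repeat group 2 they were 2.32 and 1.68. Both effects were thus larger in repeat group 2, and within repeat group 1 the CIE and Ctrl mice overlapped for both genes.

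The less bright H2-Ab1 probesets differed by 0.91 ± 0.32 (1451721_a_at, limma adjusted p = 0.0529) and 0.53 ± 0.26 (1425477_x_at, adjusted p = 0.166) at 8h. Ciita differed by 0.00 ± 0.12 on its brightest probeset (limma adjusted p = 0.994), where the value of CIE mouse 15 was 5.53 and those of the other 4 CIE mice lay between 4.42 and 4.79. Without that mouse the effect was -0.20 (adjusted p = 0.202), and it was -0.31 within repeat group 1 and 0.46 within repeat group 2. The other Ciita probesets differed by 0.17 ± 0.09 and -0.08 ± 0.08. The 8h contrast therefore showed H2-Ab1 and H2-Aa calls beside a Ciita signal that, at its low brightness, did not differ detectably (95% interval -0.24 to 0.24 on 1421210_at).

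**Figure D2:**
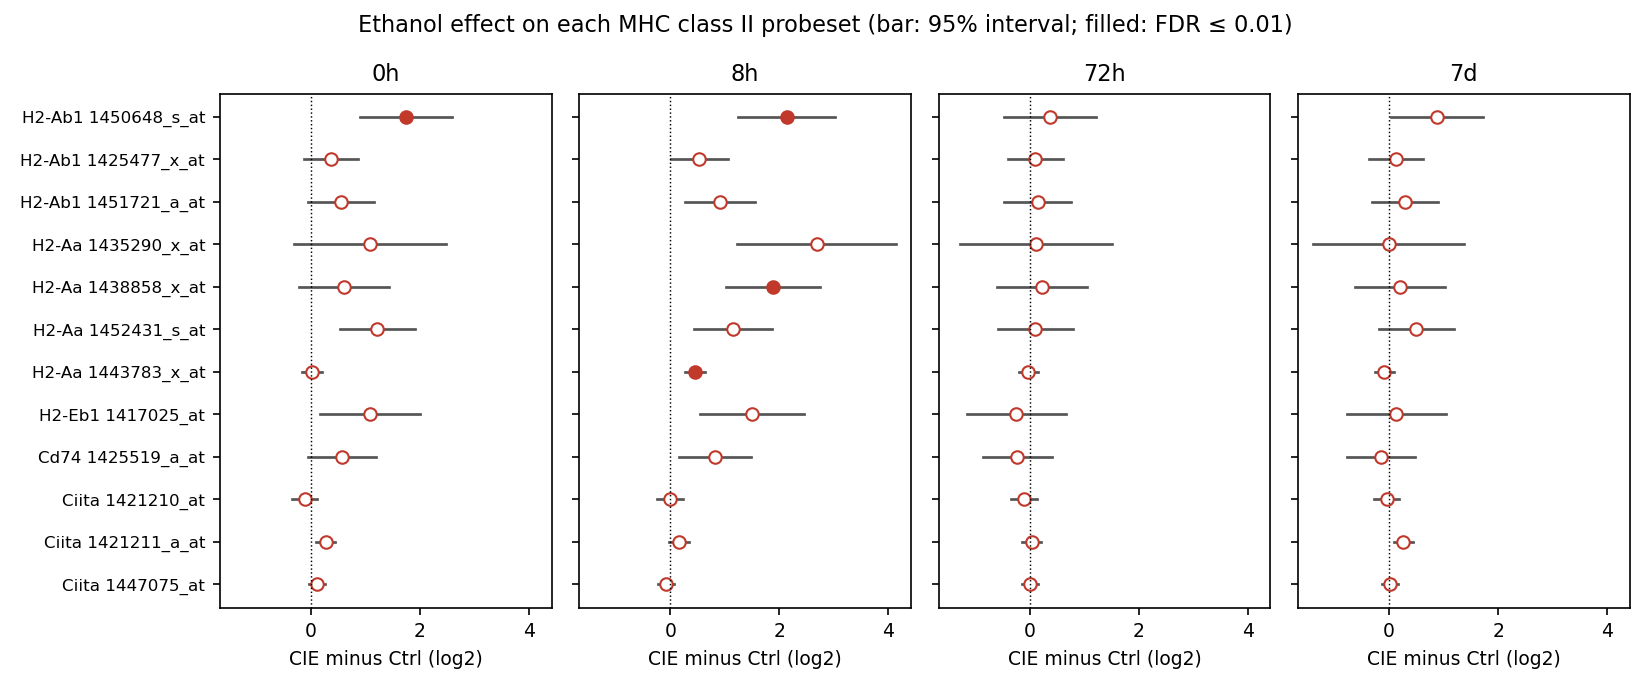
CIE minus Ctrl (log2, x axis) for the 12 class II probesets (rows) at each time (panels), with 95% intervals; filled points passed FDR ≤ 0.01. There was 1 filled point at 0h and 3 at 8h, the intervals of H2-Aa 1435290_x_at were the widest, and all effects at 72h lay between -0.25 and 0.37.

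At 8h, 3 of 12 member probesets were called, all higher, where 3.39% of all probesets were called (2.28% as higher). Of the 12, 9 had an unadjusted p ≤ 0.05 (28.1% of all probesets did), and the median effect was 0.86, against 0.00731 over all probesets. The groups did not overlap for 2 of the 12, both higher in CIE, where 3.86% of all probesets did not overlap and were higher. Probesets of the same gene share a transcript and are not independent. The count of 3 became 1 without CIE mouse 15, 1 without CIE mouse 23, 5 without CIE mouse 51, and 0 on the repeat group 1 arrays alone or the 8h arrays alone.

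At 72h no member probeset passed (0 of 12 in limma, 0 at an unadjusted p ≤ 0.05), where 0.528% of all probesets were called. The probeset 1450648_s_at of H2-Ab1 ranged over 5.58 to 6.42 in CIE mice (median 6.06) and over 4.75 to 7.16 in Ctrl mice (median 5.39), an effect of 0.37 ± 0.42. Ctrl mouse 24 lay above every CIE mouse. For H2-Eb1 and Cd74 the CIE means were the lower ones, by -0.25 ± 0.45 and -0.22 ± 0.31, and without Ctrl mouse 24 the H2-Eb1 effect was 0.11. The median over the 12 effects was 0.07.

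At 7d again 0 of 12 member probesets passed in limma, where 0.948% of all probesets were called, and 2 of the 12 had an unadjusted p ≤ 0.05 (17.5% of all probesets did). The probeset 1450648_s_at of H2-Ab1 ranged over 5.24 to 7.20 in CIE mice (median 6.26) and over 5.02 to 5.65 in Ctrl mice (median 5.45). CIE mice 13 (7.20), 7 (7.09) and 27 (6.87) lay above every Ctrl mouse, while mice 37 (5.65), 65 (5.62) and 45 (5.24) lay inside the Ctrl range. The effect was 0.87 ± 0.42 (unadjusted p = 0.0431, limma adjusted p = 0.266). The other H2-Ab1 probesets differed by 0.29 ± 0.30 (1451721_a_at, limma adjusted p = 0.684) and 0.12 ± 0.25 (1425477_x_at, adjusted p = 0.850). On 1425477_x_at mice 13 (4.56) and 7 (4.58) lay inside the Ctrl range. On 1451721_a_at mouse 7 (4.64) lay above every Ctrl mouse and mouse 13 (4.40) did not. H2-Eb1 differed by 0.14 ± 0.45 and Cd74 by -0.15 ± 0.31. H2-Aa, the partner chain, read 5.28, 4.90 and 8.34 on 1435290_x_at in CIE mice 13, 7 and 27, where mouse 27 alone was far above the rest. On 1452431_s_at the same mice read 5.20, 5.38 and 5.87, all above the highest Ctrl mouse (4.95). The H2-Aa effect was -0.01 ± 0.69 on 1435290_x_at and 0.50 ± 0.34 on 1452431_s_at (limma adjusted p = 0.997 and 0.478). Ciita 1421211_a_at ranged over 4.21 to 4.57 in CIE mice and over 3.85 to 4.33 in Ctrl mice, an effect of 0.27 ± 0.09 (unadjusted p = 0.00368, limma adjusted p = 0.0732).

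Over the 4 times together, the moderated F test of the ethanol effects called 5 of 12 member probesets (13.6% of all probesets were called). They were H2-Ab1 1450648_s_at (limma adjusted p = 1.1e-04), 3 H2-Aa probesets, namely 1438858_x_at, 1452431_s_at and 1443783_x_at (adjusted p between 0.00435 and 0.00893), and Ciita 1421211_a_at (adjusted p = 0.00693). H2-Aa 1435290_x_at (adjusted p = 0.0300), H2-Eb1 (0.0310) and Cd74 (0.123) did not pass. The count was 2 on the repeat group 1 arrays alone and 1 among probesets brighter than the median.

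Whether the ethanol effect itself differed between times was tested as a contrast of contrasts. The effect at 7d was below that at 8h for 1 member probeset, the dim H2-Aa 1443783_x_at (-0.54 ± 0.13, limma adjusted p = 0.00950), where 1.1% of all probesets were called as lower. That call was lost in 33 of 47 fits with 1 array left out, on repeat group 1 alone, with median centring and among probesets brighter than the median, so it rests on the setting. For H2-Ab1 1450648_s_at the difference between 7d and 8h was -1.26 ± 0.61 (adjusted p = 0.186), for H2-Aa 1435290_x_at -2.69 ± 1.00 (adjusted p = 0.0832) and for H2-Eb1 -1.37 ± 0.65 (adjusted p = 0.184). Between 72h and 8h, 7 member probesets had an unadjusted p ≤ 0.05 and 0 passed in limma, with H2-Ab1 1450648_s_at at -1.77 ± 0.61 (adjusted p = 0.199), and 0.00222% of all probesets were called. Between 8h and 0h, 0 passed and 2 had an unadjusted p ≤ 0.05, where 3.41% of all probesets were called. Between 7d and 0h, 0 passed and 0 had an unadjusted p ≤ 0.05 (smallest limma adjusted p = 0.432). Between 72h and 0h, 0 passed and 3 had an unadjusted p ≤ 0.05. The share of all probesets called is not given for the differences of 7d and 72h from 0h. These counts of 0 therefore do not show that the effects were alike. On H2-Ab1 1450648_s_at the difference between 7d and 0h was -0.87 ± 0.59. Apart from this call on the dim H2-Aa probeset, the test of the difference did not show a fading of the effect after 8h.

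Within CIE mice the class II level itself fell with time after exposure. This fall was not shown to exceed that in Ctrl mice, since the ethanol effects at 7d and 0h differed for 0 of 12 probesets in limma. On H2-Aa 1435290_x_at Ctrl mice at 7d differed from Ctrl mice at 0h by -1.93 ± 0.69 (limma adjusted p = 0.143). The F test over the 4 CIE groups called 8 of the 12 probesets, all those of H2-Aa, 2 of H2-Ab1, H2-Eb1 and Cd74 (10% of all probesets were called), with adjusted p between 5.1e-05 and 0.00404. CIE mice at 72h were below CIE mice at 0h for 3 of 12 (2.06% of all probesets were called as lower) and below CIE mice at 8h for 1 of 12 (0.389%). CIE mice at 7d were below CIE mice at 0h for 5 of 12 (2.08% of all probesets were called as lower): H2-Aa 1435290_x_at averaged 5.68 ± 1.34 at 7d and 8.70 ± 1.43 at 0h (SD, n = 6 each), a difference of -3.02 ± 0.69 (SE; limma adjusted p = 0.00392), H2-Ab1 1450648_s_at differed by -2.14 ± 0.42 (adjusted p = 9.1e-04) and Cd74 by -1.32 ± 0.31 (adjusted p = 0.00545). CIE mice at 7d were also below CIE mice at 8h for 5 of 12 (3.79% of all probesets were called as lower). No probeset differed between CIE 8h and CIE 0h (0 of 12 in limma, 1 at an unadjusted p ≤ 0.05, 5.95% of all probesets called).

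Ctrl mice also had their highest H2-Ab1 and H2-Aa means at 0h, without passing the test. The F test over the 4 Ctrl groups called 0 of 12 probesets in limma, with 6 at an unadjusted p ≤ 0.05 (1.72% of all probesets were called). H2-Aa 1435290_x_at averaged 7.62 ± 1.79 in Ctrl mice at 0h, 6.34 ± 1.15 at 8h, 6.13 ± 1.42 at 72h and 5.69 ± 0.345 at 7d (SD, n = 6 each), and its adjusted p was 0.220. Ordered by mean, H2-Ab1 1450648_s_at ran CIE 0h (8.42), CIE 8h (8.01), Ctrl 0h (6.67), CIE 7d (6.28), CIE 72h (6.00), Ctrl 8h (5.87), Ctrl 72h (5.63) and Ctrl 7d (5.40). The only gap between neighbours in that order that exceeded 1 SD of the residuals (0.759) was the one between CIE 8h and Ctrl 0h.

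**Figure D3:**
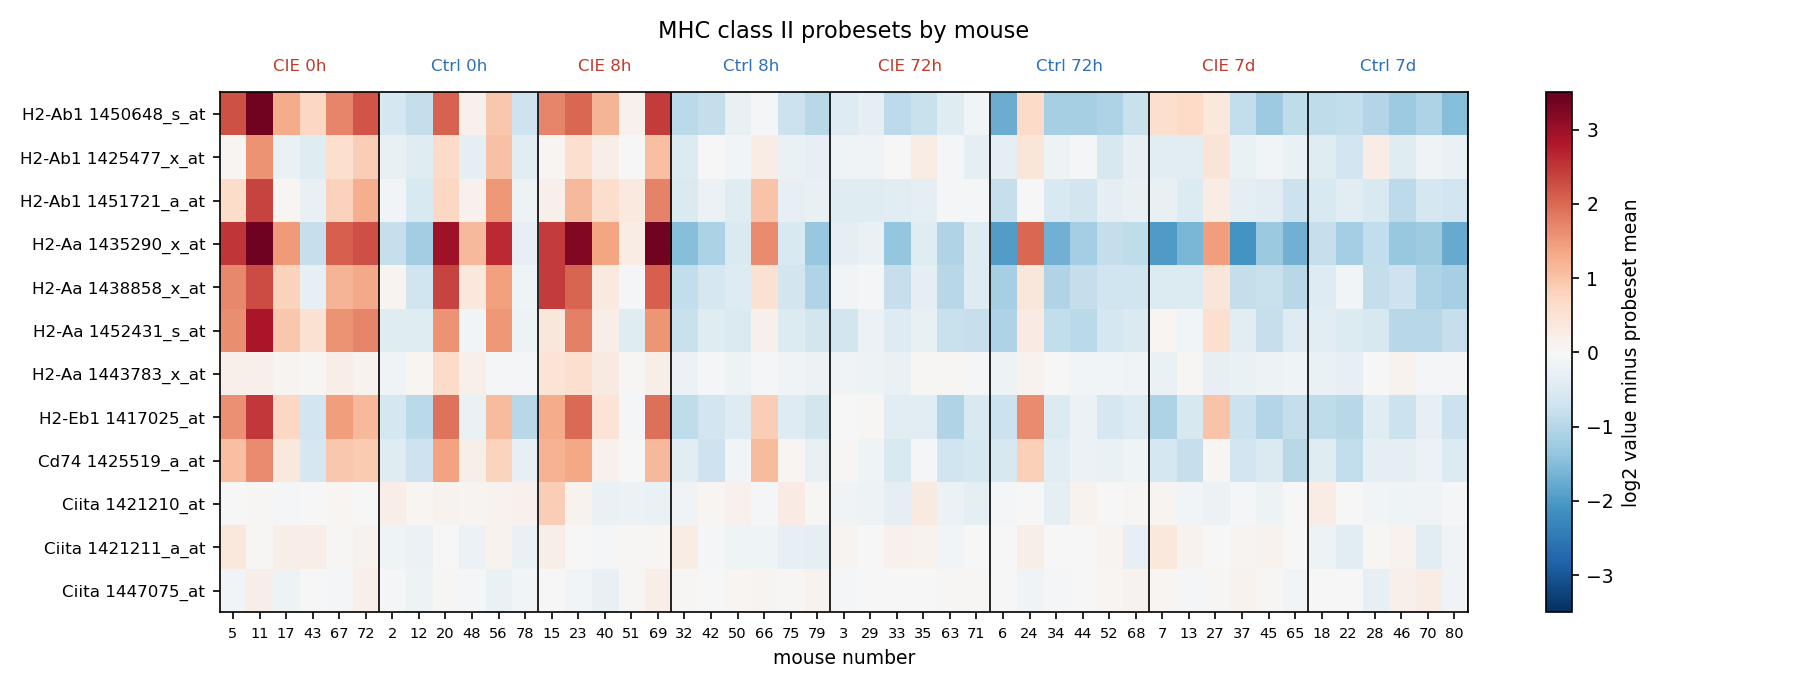
Log2 value minus the probeset mean (colour) for the 12 class II probesets (rows) in each of the 47 mice (columns, by mouse number), CIE left of Ctrl at each time. Most CIE mice at 0h and 8h are red across H2-Ab1, H2-Aa, H2-Eb1 and Cd74, single mice outside those groups (Ctrl 20, 56, 66 and 24 and CIE 27) are red on most but not all of the same rows, and the Ciita rows stay pale.

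Class II RNA varied more between mice of one group than most transcripts did. The residual SD of 8 of the 12 probesets, all but the dim H2-Aa probeset and Ciita, stood at or above the 96.9 percentile of all probesets. The variation was shared between genes: over the deviations of the 47 arrays from their group means, H2-Aa and H2-Eb1 had a Pearson r of 0.94 (Spearman rho 0.86), H2-Eb1 and Cd74 0.93 (rho 0.90) and H2-Aa and Cd74 0.92 (rho 0.88). H2-Ab1, read from 1451721_a_at, correlated with these at r = 0.77 (rho 0.68), 0.74 (rho 0.58) and 0.73 (rho 0.62) for H2-Aa, H2-Eb1 and Cd74. The permutation p of these 6 pairs lay between 1e-05, the smallest that 100000 permutations within groups can give, and 6e-05 for r (Benjamini-Hochberg over 10 pairs at most 1e-04), and was at most 4.5e-04 for rho (7.5e-04 after adjustment). Leaving out the 2 mice farthest from the median left r between 0.70 and 0.92. Over the 42 arrays of repeat group 1 the 6 values of r lay between 0.76 and 0.94, and repeat group 2 held too few arrays for a value.

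The dim Ciita signal did not share this variation. At its low brightness this cannot show whether the gene itself varied apart from the others. Its r with the other genes lay between -0.14 and 0.19 (rho between -0.02 and 0.15), with permutation p between 0.270 and 0.833 for r and between 0.346 and 0.889 for rho (all adjusted values at or above 0.386), and without the 2 farthest mice it lay between -0.19 and 0.22. Over the repeat group 1 arrays it lay between -0.08 and 0.02. The 3 Ciita probesets did not follow each other either, with r between -0.23 and 0.04. Among the other genes' probesets, H2-Aa 1435290_x_at and 1438858_x_at had r = 0.90, and H2-Ab1 1450648_s_at and 1451721_a_at 0.72. The dim H2-Aa 1443783_x_at had lower values, 0.42, 0.46 and 0.39 with the other H2-Aa probesets and 0.17 with H2-Ab1 1451721_a_at.

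**Figure D4:**
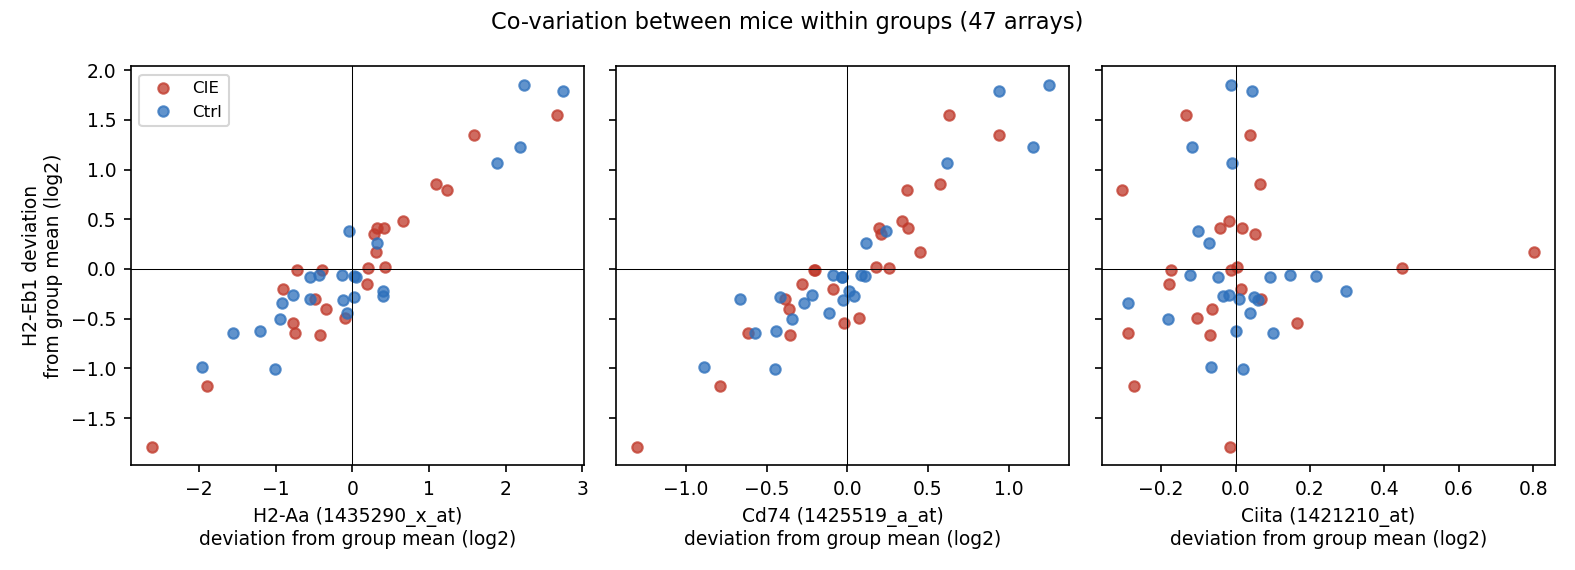
Deviation of each mouse from its group mean (log2) for H2-Eb1 (y axis) against H2-Aa, Cd74 and Ciita (x axes), CIE in red and Ctrl in blue, 47 arrays. Points lie along a line for H2-Aa (r = 0.94) and Cd74 (r = 0.93) in mice of both treatments and form no line for Ciita (r = 0.04).

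The genes whose between-mouse pattern was most like a member's were found among 18192 other genes by the same r, as a description with no test. For Cd74 they were Gbp6 (0.93), H2-Eb1, Igtp (0.93), H2-Aa, Nlrc5 (0.92), Gm4951 (0.92), Irgm1 (0.91), Irgm2 (0.91), Iigp1 (0.91) and Psmb8 (0.90). Of these, 5 belonged to the interferon response list and 2 to the MHC class I list, among them Nlrc5, the class I counterpart of Ciita, and Psmb8, an immunoproteasome subunit. For H2-Ab1 they were Bst2 (0.88), Cxcl9 (0.85), C1qc (0.84), Psmb8 (0.81), Psmb9 (0.79), C1qb (0.79), Cxcl10 (0.77), H2-Aa, Gm4951 (0.77) and Pycard (0.76), with 3 from the interferon list and, in C1qb and C1qc, 2 complement genes of microglia. The 2 sets of 10 shared 3 genes. All values come from the same arrays.

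Some of the mice that stood out in class II also stood out in the interferon response list, which holds 5 of the genes just named for Cd74, so its means are no separate support. Over the 32 genes of the interferon response list the mean level was 7.70 in Ctrl mouse 20, 7.69 in Ctrl mouse 66, 7.26 in Ctrl mouse 24 and 6.86 in CIE mouse 27, the highest of each group, and 6.62 in CIE 0h mouse 43, the lowest of its group. CIE 7d mice 13 and 7, which had the highest H2-Ab1 1450648_s_at of their group, had the lowest interferon list means in it (6.19 and 6.22). Nlrc5 ranged over 5.10 to 7.69 in CIE mice and over 4.71 to 7.03 in Ctrl mice at 0h, and differed by 0.93 (limma adjusted p = 0.0582).

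Among other genes of the class II pathway few passed. In the list of peptide loading factors and further class II chains (15 measured), 1 rose and 0 fell at 0h and none passed at 8h (0 in limma, 5 at an unadjusted p ≤ 0.05), with median effects of 0.18 and 0.14. The gene that rose was H2-DMb2, a DM beta chain nearly identical to H2-DMb1 (0.46 ± 0.09, limma adjusted p = 6.1e-04), of which 1 further probeset rose and 1 fell, so its direction is uncertain. At 8h the smallest p belonged to Ifi30, the lysosomal thiol reductase (0.55 ± 0.18, adjusted p = 0.0430), and Ctss, the protease that trims the invariant chain (0.41 ± 0.15, adjusted p = 0.0621).

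In the list of class II transcription factors and interferon-gamma signaling (25 measured), 1 gene rose and 2 fell at 0h, and 0 passed at 8h in limma (7 at an unadjusted p ≤ 0.05), with medians of 0.05 and 0.03. Irf8, a myeloid interferon regulatory factor, averaged 6.94 ± 0.28 in CIE mice and 6.46 ± 0.18 in Ctrl mice (SD, n = 6 each) and rose by 0.48 (limma adjusted p = 0.00701). Socs1, a feedback inhibitor of interferon signaling, averaged 4.28 ± 0.16 and 4.85 ± 0.17 in the same order and changed by -0.57 (adjusted p = 8.0e-05), and Prdm1, a repressor of Ciita in plasma cells, changed by -0.39 (adjusted p = 0.00253). Socs1 and Prdm1 were below the median brightness. At 8h the smallest p belonged to Ep300, a histone acetyltransferase (0.44 ± 0.12, adjusted p = 0.0130), and Tgfb1, a cytokine that represses Ciita (0.34 ± 0.11, adjusted p = 0.0396).

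The lists that run in parallel to class II were higher in CIE on average with few calls. Of 16 MHC class I and peptide loading genes, 14 were higher at 0h and 13 at 8h (medians 0.33 at both times); Tap1, a subunit of the peptide transporter, rose at 0h (1.01 ± 0.27, limma adjusted p = 0.00867), and 0 passed at 8h in limma (9 at an unadjusted p ≤ 0.05), where H2-K1, a class I heavy chain, differed by 1.06 ± 0.29 (adjusted p = 0.0156) and Calr, a chaperone of class I assembly, by 0.28 ± 0.08 (adjusted p = 0.0164). On further probesets, 3 class I genes were called higher at 0h and 2 at 8h, and 0 lower. Of 32 interferon response genes, 26 were higher at 0h and 28 at 8h (medians 0.29 and 0.49), and 0 passed in limma at either time, with 7 and 15 at an unadjusted p ≤ 0.05 (28.6% and 28.1% of all probesets were) and 0 called on further probesets. The smallest p there belonged to Oasl1 (0.41 ± 0.14, adjusted p = 0.0460) and Oasl2 (0.80 ± 0.29, adjusted p = 0.0555) at 0h, and to the RNA sensor Ddx58 (0.46 ± 0.13, adjusted p = 0.0209) and Gbp7 (0.85 ± 0.26, adjusted p = 0.0264) at 8h. Among 15 costimulators and class II partners, Cd86 fell at 0h (-0.48 ± 0.11, adjusted p = 0.00342) and the chemokine Ccl12 rose at 8h (1.66 ± 0.31, adjusted p = 9.3e-04). On further probesets at 0h, 2 genes of this list were called higher and 1 lower.

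**Figure D5:**
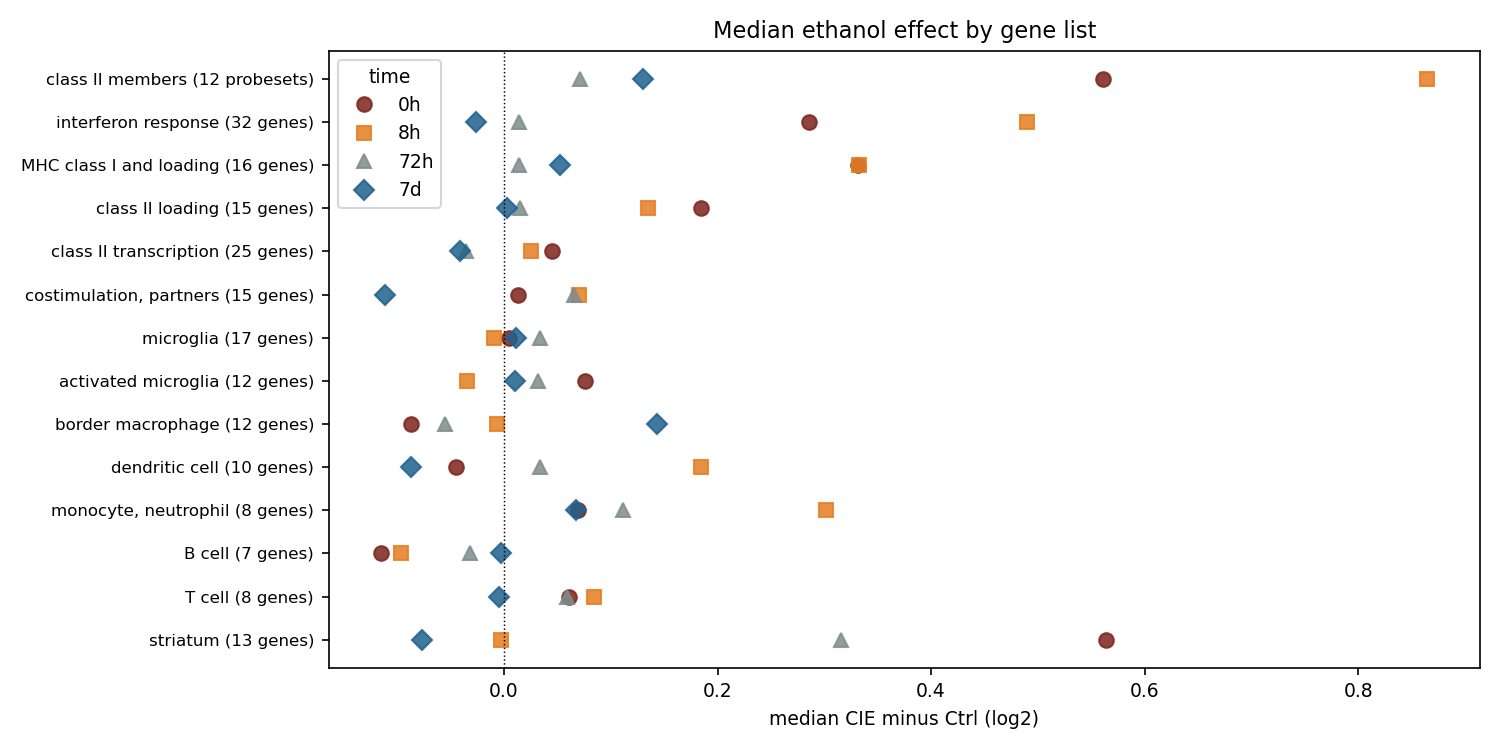
Median CIE minus Ctrl (log2, x axis) over the class II members and over 13 gene lists (rows), by time (symbols). The class II members lay at 0.56 at 0h and 0.86 at 8h, the interferon response list at 0.29 and 0.49, and the microglia list within 0.01 of 0 at both times; the striatum list lay at 0.56 at 0h.

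Markers of microglia, which can carry class II, had a median effect near 0. Of 17 microglial markers, 0 rose and 1 fell at 0h, and 0 rose and 2 fell at 8h (7 and 8 at an unadjusted p ≤ 0.05, medians 0.01 and -0.01): Fcrls, a microglial Fc receptor-like gene, fell at both times (-1.29 ± 0.15 and -0.89 ± 0.15, limma adjusted p = 1.8e-07 and 5.1e-04) and P2ry12, a purinergic receptor of resting microglia, at 8h (-0.57 ± 0.12, adjusted p = 0.00198). The mean level of this list ranged over 7.86 to 8.52 in CIE mice and over 8.16 to 8.48 in Ctrl mice at 0h, and over 8.12 to 8.47 and 8.17 to 8.45 in the same order at 8h. Of 12 markers of activated microglia, Itgax rose at 0h (0.40 ± 0.08, adjusted p = 4.97e-04), and 0 passed at 8h in limma (6 at an unadjusted p ≤ 0.05).

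Blood and border cell markers were mostly dim. Below the median of probeset means were 6 of 7 B cell, 8 of 8 T cell, 11 of 12 border macrophage and 7 of 8 monocyte and neutrophil markers. The B cell list ranged over 5.32 to 5.60 in CIE mice and over 5.65 to 5.76 in Ctrl mice at 0h, and the immunoglobulin gene Ighm fell on the probeset read (-1.02 ± 0.24, limma adjusted p = 0.00284), while 1 of its other probesets rose and 1 fell. Of the dendritic cell list (10 measured), Fscn1, which neurons also express, fell at 0h and rose at 8h by less than 0.3. Of 12 border macrophage markers, 5 were higher and 7 lower at 0h. Only Pf4 was called, as lower (-0.83 ± 0.22, limma adjusted p = 0.00764). Of 8 monocyte and neutrophil markers, 6 were higher and 2 lower at 8h. Plac8 (0.41 ± 0.10) and Chil3 (0.30 ± 0.08) were called there, both higher (limma adjusted p = 0.00861 and 0.00964). At 8h the mean of the monocyte and neutrophil list ranged over 5.02 to 5.22 in CIE mice and over 4.87 to 5.00 in Ctrl mice, without overlap, that of the T cell list over 5.01 to 5.21 and 4.90 to 5.02 in the same order, and that of the dendritic cell list over 6.42 to 6.66 and 6.33 to 6.48. The higher means of the monocyte and neutrophil list and of the T cell list were not particular to 8h. At that time they were 5.14 in CIE against 4.92 in Ctrl mice, and 5.10 against 4.98. The monocyte and neutrophil mean was also higher in CIE mice at 0h (4.99 against 4.92), 72h (5.11 against 4.94) and 7d (5.01 against 4.91). So was the T cell mean, at 5.03 against 4.93, 5.05 against 4.99 and 5.01 against 4.94. The dendritic cell mean differed most at 8h (6.53 in CIE against 6.40 in Ctrl mice). It was 6.51 against 6.50 at 0h and 6.44 against 6.40 at 72h, and was lower in CIE mice at 7d (6.37 against 6.44). On further probesets at 0h, 3 T cell genes were called higher and 0 lower. Of 8 markers of the meninges, 4 lay below the median of probeset means. In CIE mice 7 of the 8 were lower at 0h and 7 at 72h (medians -0.31 and -0.27). At 8h 6 were lower, and at 7d 6 were higher (medians -0.13 and 0.18). At each time 0 of them were called in limma. The part of any of these in the class II result was not tested.

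Striatal markers were higher on average in CIE mice at 0h. All 13 measured were higher on the probeset read (0 called in limma, 9 at an unadjusted p ≤ 0.05). On further probesets, 4 of these genes were called higher and 1 lower. The list had a median effect of 0.56, and its mean level ranged over 8.73 to 10.3 in CIE mice and over 8.49 to 8.92 in Ctrl mice. At 8h the median was -0.00, with 6 of 13 higher. At 72h, when no class II probeset was called, 12 of 13 were again higher (median 0.32, 0 called in limma). At 7d 5 of 13 were higher (median -0.08). The part of tissue carried over from striatum in the 0h class II values was not tested.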

How the data were processed

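Each array carried RNA from the PFC of 1 mouse. The deposited values are log2 intensities per probeset. RMA is named in the submitters' processing notes, and the methods of the study describe quantile normalization and ComBat with repeat group as the batch, made by the authors before deposit. Because repeat group 2 held 8h mice only, that adjustment may shift 8h levels. No version of these programs is given in the sources used here. No value column was set aside (0 of the deposited columns).

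The log2 values were used without a filter. One limma model (version 3.58.1, R 4.3.3, data.table version 1.17.8) with a mean per group was fitted to the 47 arrays. Contrasts and moderated F tests were adjusted by Benjamini-Hochberg over 45037 probesets, and FDR ≤ 0.01 made a call. Adjusted p-values come from such fits, with mice as replicates. Python 3.11.15 with pandas 2.3.3, numpy 2.4.6, scipy 1.17.1 and matplotlib 3.10.9 served for correlations, motifs and figures.

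The platform annotation named 1 symbol for 34945 probesets, several to 932 and none to 9160. Every member probeset was reported. A gene was read from its brightest probeset, those with the suffix _x_at or _s_at last. From each pathway list up to 4 genes of smallest p that passed were named, or 2 where none did, and the 10 genes closest to H2-Ab1 and to Cd74 by correlation. Other genes with values were named after their values were seen. The members and lists were chosen with earlier results of these data known. Other settings were repeat group as a term, repeat group 1 alone, single time points alone, array weights, trended robust moderation, repeated quantile normalization, median centring, a brightness filter, exact permutation, gene means and leaving out each array.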

Additional observations from a re-analysis of the deposited data

Results flagged for a closer look

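Single mice lay far from the rest of their group in 17 of 96 tests (12 probesets in 8 groups, Dixon's criterion), where chance flags about 1 in 20 groups; probesets of one mouse are not independent. CIE 7d mouse 27 was the highest for H2-Ab1 1425477_x_at (5.39), H2-Aa 1435290_x_at (8.34), H2-Aa 1438858_x_at (7.09) and H2-Eb1 (7.61). Ctrl 8h mouse 66 was the highest for H2-Ab1 1451721_a_at (5.90), H2-Aa 1435290_x_at (8.53), 1438858_x_at (7.20) and 1452431_s_at (5.49), and H2-Eb1 (7.46). Ctrl 72h mouse 24 was the highest for H2-Aa 1435290_x_at (8.88) and 1438858_x_at (7.06), H2-Eb1 (8.26) and Cd74 (7.81). These 3 mice account for 13 of the 17 values.

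The remaining 4 values were those of Ctrl 0h mouse 20 for H2-Aa 1443783_x_at (4.28), CIE 72h mouse 35 (4.97) and Ctrl 72h mouse 34 (4.34, the lowest of its group) for Ciita 1421210_at, and CIE 7d mouse 7 for Ciita 1421211_a_at (4.57). The ethanol effect on H2-Aa 1443783_x_at differed between 7d and 8h by -0.54 (limma adjusted p = 0.00950), a difference between times called by its own test but lost in 33 of 47 fits with 1 array left out, on repeat group 1 alone, with median centring and among bright probesets. This probeset lies near the lower limit of the array.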

How the results depend on the processing

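The number of called member probesets moved with the setting, and the cause was not tested beyond what each setting removes. At 0h (1 called) it was 0 on the arrays of that time alone and 2 with array weights, and ranged over 0 to 2 when single arrays were left out. At 8h (3 called) it was 0 on repeat group 1 arrays alone and 0 on the arrays of that time alone, and ranged over 1 to 5. The difference between 7d and 8h (1 called) gave 0 on repeat group 1 arrays alone, 0 with median centring and 0 among probesets brighter than the median, and ranged over 0 to 1. The F test over the 4 times (5 called) gave 2 on repeat group 1 arrays alone and 1 among bright probesets, and ranged over 2 to 6; time within CIE (8 called) gave 5 among bright probesets, which hold 5 of the 12 members. Apart from arrays left out, 412 single effects and 85 counts kept their direction and side of the threshold or stayed within the range allowed, 8 single effects lost their call, 3 gained one and 9 turned sign. Of the last, Ciita 1421210_at at 8h was -0.31 on, and within, repeat group 1, -0.28 with array weights, -0.00829 with quantile normalization repeated and -0.00885 with median centring, and as a mean of probesets Ciita gave 0.0899 at 0h and 0.0801 at 7d; with array weights H2-Aa 1443783_x_at at 72h was 0.00145 and H2-Aa 1435290_x_at at 7d was 0.14. Leaving out single arrays also turned the sign of some effects. At 0h H2-Aa 1443783_x_at ranged over -0.0250 to 0.133, and at 8h Ciita 1421210_at over -0.199 to 0.0778. At 72h H2-Aa 1435290_x_at ranged over -0.124 to 0.667, H2-Aa 1443783_x_at over -0.0474 to 0.0163, H2-Eb1 over -0.372 to 0.111, Ciita 1421211_a_at over -0.0170 to 0.0781 and Ciita 1447075_at over -0.0185 to 0.0305. At 7d H2-Aa 1435290_x_at ranged over -0.540 to 0.173, H2-Eb1 over -0.173 to 0.245, Ciita 1421210_at over -0.0757 to 0.0163 and Ciita 1447075_at over -0.0408 to 0.0696. No paired analysis was possible because each of the 47 mice had a number of its own. H2-Aa gave no mean over probesets without the suffixes _x_at or _s_at, since it had none. The dim Ciita and H2-Aa 1443783_x_at signals and the spread between mice limit what 5 or 6 arrays per group can show.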

Other observations

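The H2-Ab1 probeset 1450648_s_at and H2-Eb1 can be set against each other within an array; this pair was chosen after its values were seen, the probesets differ in affinity, and only changes between groups can be read. The difference H2-Ab1 minus H2-Eb1 averaged 0.69 ± 0.40 in CIE mice and 0.03 ± 0.19 in Ctrl mice at 0h (SD, n = 6 each), and 0.27 ± 0.27 in CIE mice (n = 5) and -0.37 ± 0.36 in Ctrl mice (n = 6) at 8h. It averaged -0.23 ± 0.51 in CIE mice and -0.84 ± 0.29 in Ctrl mice at 72h, and 0.21 ± 0.92 in CIE mice and -0.52 ± 0.39 in Ctrl mice at 7d (n = 6 each). On this H2-Ab1 probeset the CIE mean was the higher one at all 4 times. The other H2-Ab1 probesets, 1451721_a_at and 1425477_x_at, went the other way at 0h and 8h. Their ethanol effects were 0.55 and 0.36 at 0h, against 1.08 for H2-Eb1, and 0.91 and 0.53 at 8h, against 1.50. The direction of this difference therefore depends on the probeset. At 7d the highest difference, 1.56, belonged to CIE mouse 7, whose H2-Ab1 value was 7.09 and whose H2-Eb1 value was 5.52. No test was run on this difference.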
